A study of Arabidopsis thaliana with 4 samples.

Results

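The comparison described here sets sfr6 against wild type at the end of 3 h of darkness. It rests on 2 of the 4 arrays of the series, the array titled sfr6-dk and the array titled wildtype-dk, and the 2 arrays of plants kept in light (sfr6, then wild type) are given beside it. The sfr6 plants carried an EMS (chemically induced) mutation in the Col-0 background, and the wild type was Col-0. Per the labels, all plants grew on agar for 7 days and spent 24 h in a bright cabinet (240 microEinsteins, 16 h light and 8 h dark per day). The dark groups were then wrapped in aluminium foil for 3 h, while the light groups stayed uncovered for the same 3 h. The 4 groups are therefore sfr6 dark, wild type dark, sfr6 light and wild type light, each with 1 array, and no difference below has a replicate check or a test. The arrays were Affymetrix ATH1 arrays, which hold short probes for most Arabidopsis thaliana genes. The labels call the tissue a cell culture, but transcripts of differentiated organs were bright after dark in both genotypes: RCA, the activase of the carbon-fixing enzyme Rubisco, read 3043 in sfr6 and 3290 in wild type. PYK10, a root beta-glucosidase, read 1823 in sfr6 and 2081 in wild type. The 1 measured seed marker read 82.5 in sfr6 dark and 75.5 in wild type dark. No flower or pollen marker of the list used was matched to a probe set with a gene name, so that list gave no reading.

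SFR6 encodes MED16, a subunit of Mediator, the complex that passes signals from DNA-bound transcription factors to RNA polymerase II. Mutants in it are known for freezing sensitivity, for weak expression of cold-regulated (COR) genes that the CBF transcription factors activate, and for weak expression of several defence genes. In darkness, seedlings stop making sugar, and a starvation programme that degrades amino acids and other reserves is switched on, while pigment and growth genes are switched off. SFR6 itself is not analysed here. Of the other Mediator subunits, 4 were measured, and their differences lay between -0.29 (MED6) and 0.24 (MED31) on the log2 scale.

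Signals are the deposited MAS5 intensity values. Any signal under the floor of 22.1, the 40th percentile of all signals, was set to the floor, and the log2 difference is always sfr6 minus wild type. A fold is written as "at least" where the dimmer signal lay under the floor. Of 22746 probe sets, 13931 reached the floor on 1 or both dark arrays and were compared. At least 2-fold lower in sfr6 were 233 of them (1.67%), and 109 were at least 2-fold higher (0.782%). The split depends on scale: centring the arrays on spike-in controls, labelled transcripts of known amount added with the hybridisation mix, gave 184 lower and 192 higher. The median difference over all compared probe sets was 0.05, and 90% of them lay between the 5th percentile of -0.60 and the 95th of 0.62. These controls are added after labelling, so they do not report the amount of plant RNA labelled. The 18 spike-in probe sets had differences from -0.33 to 0.32, with an SD of 0.13. Among dim probe sets (mean dark signal under 50), 1.28% were at least 2-fold lower and 1.06% higher. Among the brightest (500 and over) these shares were 1.88% and 0.0754%.

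One gene name was given to 13513 probe sets, and 7420 named genes were compared. Of these, 111 were at least 2-fold lower in sfr6 (1.50%) and 55 at least 2-fold higher (0.741%). The other called probe sets, 122 lower and 54 higher, had no single gene name and are counted but not described. The 25S ribosomal RNA control read 1321 in sfr6 dark and 364 in wild type dark, against 120 in sfr6 light and 122 in wild type light. The GAPDH control read 958 in sfr6 dark and 629 in wild type dark with the 5′ probe set, and 1059 in sfr6 dark and 851 in wild type dark with the 3′ probe set. What these control differences contribute to the gene differences was not tested. In whole plants, fewer cells of a type and less RNA per cell cannot be told apart.

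Genes were grouped into 87 lists by family or pathway, of which 48 had at least 3 measured genes. In 28 of the 48, no gene was 2-fold different. Counts of called genes below are to be read beside the shares over all named genes, 1.50% lower and 0.741% higher. Of the 48, the lists lowest in sfr6 were those of CC-type glutaredoxins, touch and early stress genes, cold-regulated genes, starvation markers, jasmonate genes and amino acid breakdown. Their medians ran from -1.32 to -0.41. The clock, antenna, defence peptide and sugar transporter lists also lay lower, with medians from -0.38 to -0.24. Medians above 0.2 were found, among others, for tau glutathione transferases, secreted peroxidases, flavonoid synthesis, tubulins and peptidases. The medians are descriptions, to be read beside the all-gene median of 0.05, and the lists were chosen with earlier results of these data known. Some members were matched by locus after values were seen. They hold every called gene of the CC-type glutaredoxin, chaperone, sugar transporter, jasmonate, defence peptide, lipid transfer and GDSL lipase lists.

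**Figure D1:**
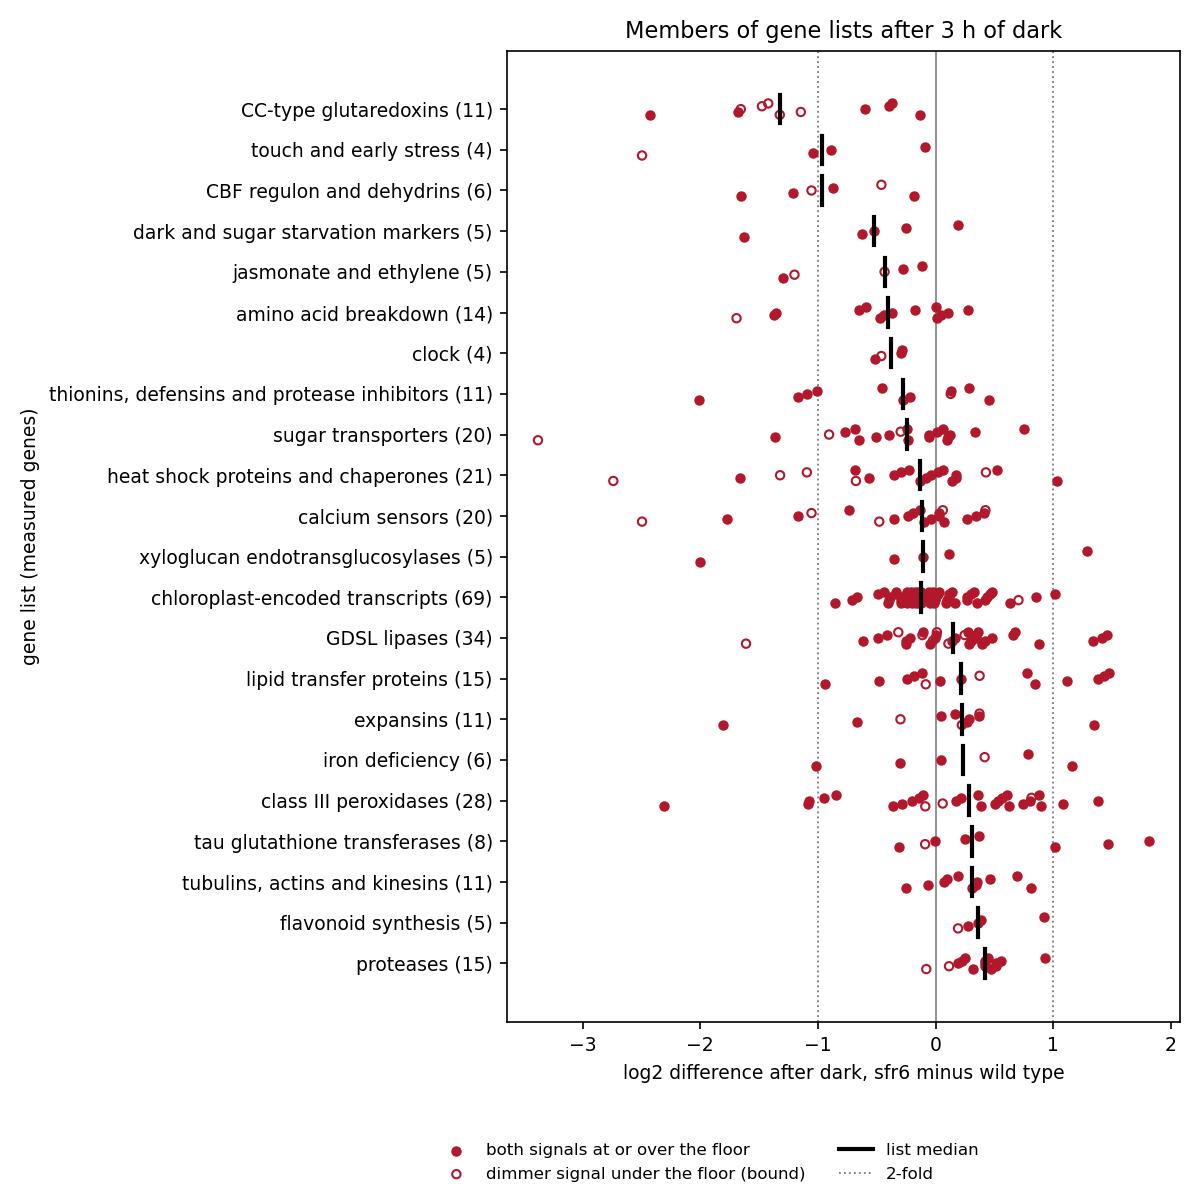
Each point is the log2 difference (sfr6 minus wild type, x axis) of 1 measured gene after 3 h of dark, in 22 gene lists (y axis, with the number of measured genes). Black bars are list medians, open points are bounds because the dimmer signal lay under the floor, and dotted lines mark 2-fold. The CC-type glutaredoxins all lie left of 0, with a median of -1.32, while most chloroplast-encoded transcripts lie within 0.5 of 0.

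Transporters and chaperones stood among the genes lowest in sfr6. AT5G18840, of the ERD6-like sugar transporter family, read 20.8 in sfr6 dark and 230.0 in wild type dark. It read 22.04 in sfr6 light and 35.4 in wild type light, so the wild-type dark array alone was clearly bright. The difference after dark was at least 10.4-fold, and after flooring no named gene had a larger one. Folds that are bounds have no true order among themselves. AT4G34950, a major facilitator transporter, read 41.3 in sfr6 dark and 331 in wild type dark, 8.01-fold lower in sfr6. In light the same gene read 140 in sfr6 and 137 in wild type, so the genotypes were close there. AT2G16660, from the same transporter family, was 4.64-fold lower in sfr6 after dark (27.8 in sfr6 and 129 in wild type) and 1.18-fold lower in light.

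The sugar transporter list had 20 measured genes, of which 2 were at least 2-fold lower in sfr6 and 0 higher, with a median of -0.24. Both called genes were among 12 members matched by locus after values were seen, against 0 of 8 matched by name. The second was TMT1, which loads sugars into the vacuole, at 194 in sfr6 dark and 499.7 in wild type dark, 2.57-fold lower in sfr6. In light it read 102 in sfr6 and 123 in wild type. The SWEET genes, which encode sugar uniporters, lay on the same side without reaching 2-fold: SWEET2 read 619 in sfr6 dark and 1055 in wild type dark. SWEET16, of the vacuole membrane, read 98.8 in sfr6 dark and 159 in wild type dark. On the other side, the sugar transporter-like gene AT3G05400 read 66.0 in sfr6 dark and 39.2 in wild type dark, so the list did not lie on 1 side as a whole.

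Heat shock proteins and other chaperones had 4 of 21 measured genes at least 2-fold lower and 1 higher, with a median of -0.14. AT5G48570, which encodes the heat-inducible prolyl isomerase FKBP65, read 16.4 in sfr6 dark and 148 in wild type dark. It was at least 6.68-fold lower in sfr6 after dark, while it read 48.1 in sfr6 light and 60.5 in wild type light. Fes1A, a nucleotide exchange factor of Hsp70, read 54.2 in sfr6 dark and 172 in wild type dark, 3.16-fold lower in sfr6. In light, its signals were 88.6 in sfr6 and 106 in wild type. Hop3, which hands clients from Hsp70 to Hsp90, was at least 2.50-fold lower in sfr6 (9.73 in sfr6 dark and 55.2 in wild type dark), and the small heat shock gene AT1G54050 at least 2.14-fold lower (19.7 in sfr6 dark and 47.2 in wild type dark). The chaperones of this group are partners of the heat response, but its other members lay close to 0. Hop1 read 108 in sfr6 dark and 98.2 in wild type dark, and Hop2 read 132 in sfr6 dark and 130.5 in wild type dark. Cpn60beta3, a subunit of the chloroplast chaperonin, was the gene on the higher side, with 53.3 in sfr6 dark and 26.03 in wild type dark. It was not called under median centring or quantile normalization.

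**Figure D2:**
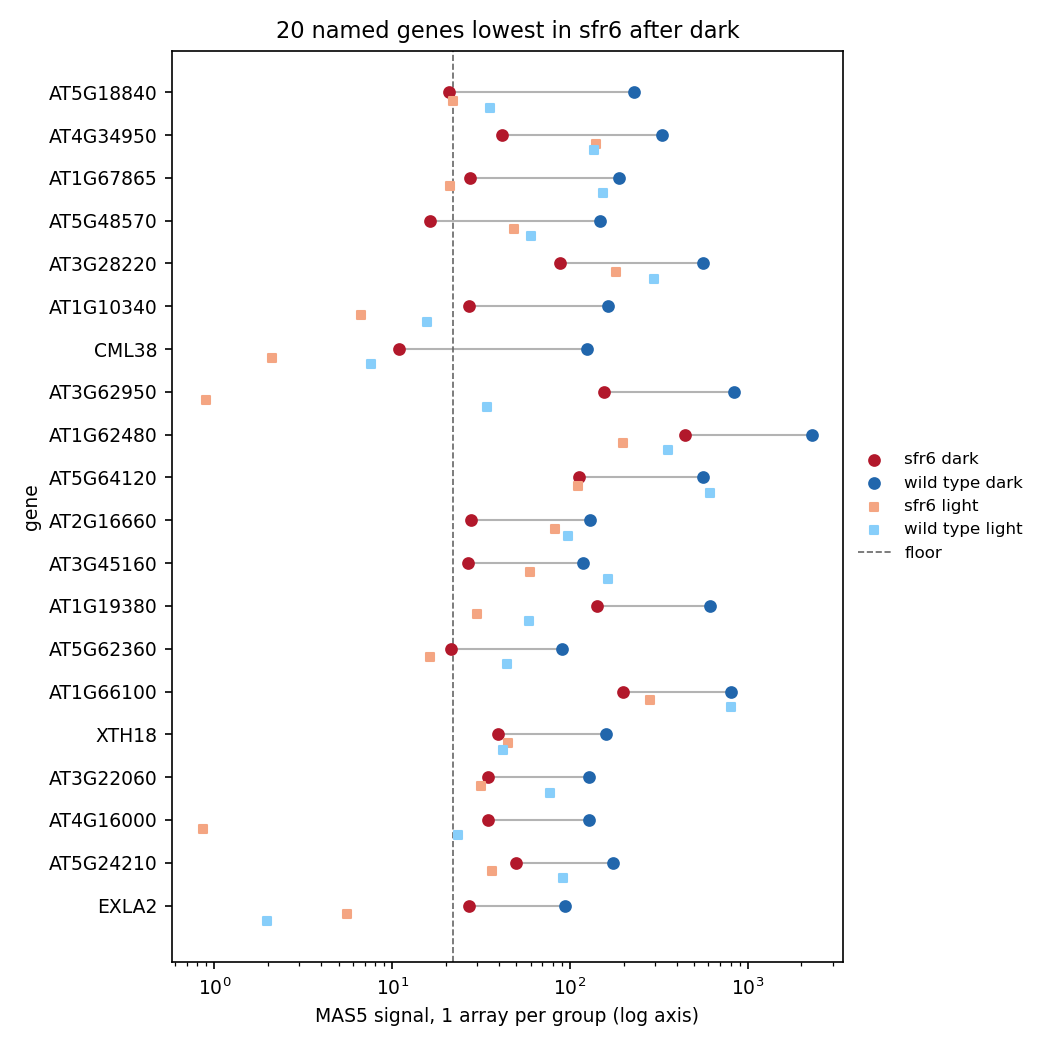
MAS5 signals (x axis, log scale) of the 20 named genes lowest in sfr6 after dark (y axis), with circles for the dark arrays (sfr6 red, wild type blue), squares for the light arrays and a dashed line at the floor of 22.1. AT5G18840 and CML38 show wide gaps between the dark circles, with both sfr6 dark circles under the floor, and AT5G64120 and AT1G67865 show gaps of similar width in light.

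Calcium sensors and touch genes gave a small group of low transcripts. CML38, a calmodulin-like protein induced by touch, wounding and low oxygen, read 10.9 in sfr6 dark and 125 in wild type dark, at least 5.64-fold lower in sfr6. On both light arrays it was under the floor. AT2G41090, another calmodulin-like gene, read 89.5 in sfr6 dark and 306 in wild type dark, 3.42-fold lower in sfr6. Its light signals ran the other way, at 143 in sfr6 and 92.0 in wild type. The EF-hand gene AT4G27280 read 107 in sfr6 dark and 241 in wild type dark, and AT1G21550, also with EF-hands, read 13.8 in sfr6 dark and 45.9 in wild type dark. These 4 were the called members among 20 measured calcium sensors, with 0 higher, and the list's median of -0.12 became 0.0040 with spike-in centring. In the touch and early stress list, CML38 and the zinc-finger repressor STZ (29.2 in sfr6 dark and 60.2 in wild type dark, 2.06-fold lower in sfr6) were 2 of 4 measured genes. The list's median was -0.97. With centring on the spike-in controls STZ was at -0.92 and not called, and 1 of the 4 genes was above 0. With the floor at the 60th percentile STZ was at -0.05. The ubiquitin ligase genes PUB23 and PUB22 completed it, with differences of -0.89 and -0.09.

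The CC-type glutaredoxins, a plant-specific group of small redox proteins that bind TGA transcription factors and are known for responses to nitrogen supply and defence, had the lowest median of the lists with at least 3 measured genes. The list was added, and its members matched by locus, after values were seen, so this rank is drawn from the same values. All 11 measured members were below 0, with a median of -1.32, 7 were at least 2-fold lower and 0 higher. The brightest of them, AT3G62950, read 155 in sfr6 dark and 834 in wild type dark, 5.37-fold lower in sfr6. In light it was far dimmer, at 0.892 in sfr6 and 34.1 in wild type, at least 1.54-fold lower in sfr6. AT4G15680 read 63.2 in sfr6 dark and 203 in wild type dark, and 36.8 in sfr6 light and 159 in wild type light. It was thus 3.21-fold lower in sfr6 after dark and 4.31-fold lower in light.

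The other 5 called glutaredoxins, AT4G15700, AT2G30540, AT4G15690, AT4G15660 and AT3G62930, read between 10.03 and 21.97 in sfr6 dark, all under the floor. In wild type dark they read between 48.9 and 69.6, so their folds are bounds, from at least 2.21-fold to at least 3.15-fold. AT5G18600, the brightest member under 2-fold, read 400 in sfr6 dark and 607 in wild type dark. ROXY1 and ROXY2, known from anther development, had differences of -0.13 and -0.39. The direction of all 11 held under the 3 other scalings tried. The size did not hold under other floors: with the floor at the 60th percentile the median was -0.26 over 7 genes, and over the 6 genes above the floor on both dark arrays it was -0.50. AT4G15660, AT4G15680, AT4G15690 and AT4G15700 lie within a few genes of each other, and AT3G62930 lies near AT3G62950. These copies are close in sequence, so their probe sets may share signal. Glutaredoxins of the other classes and thioredoxins had 0 of 10 measured genes called, with a median of 0.21.

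**Figure D3:**
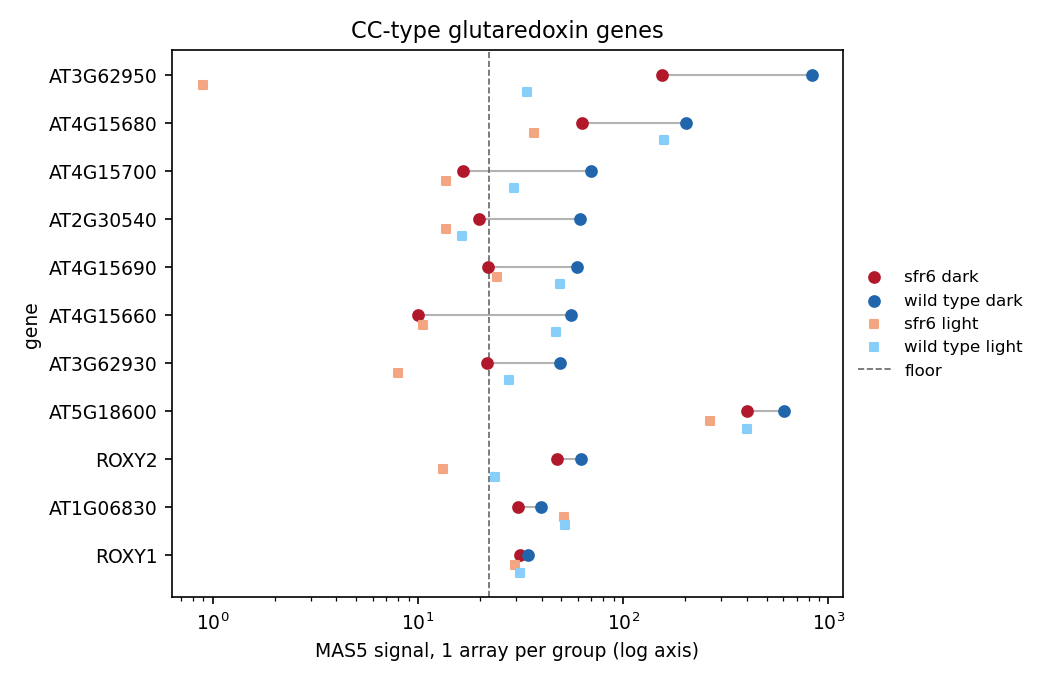
MAS5 signals (x axis, log scale) of the 11 measured CC-type glutaredoxin genes (y axis), with circles for the dark arrays (sfr6 red, wild type blue), squares for the light arrays and a dashed line at the floor of 22.1. In each row the sfr6 dark circle lies left of the wild type dark circle, and 5 of the sfr6 circles lie under the floor.

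Cold-regulated genes of the CBF regulon and dehydrins had 3 of 6 measured genes at least 2-fold lower and 0 higher, with a median of -0.96, and all 6 were below 0. COR15B, which encodes a chloroplast protein that protects membranes in freezing, read 27.5 in sfr6 dark and 86.8 in wild type dark. Its neighbour COR15A read 24.9 in sfr6 dark and 57.9 in wild type dark, and 184 in sfr6 light and 190.3 in wild type light. COR15A was thus 2.32-fold lower in sfr6 after dark, while the light signals were close to each other. COR27, a cold- and clock-controlled gene, read 19.4 in sfr6 dark and 45.9 in wild type dark, at least 2.08-fold lower in sfr6. The dehydrins LTI30 (216 in sfr6 dark and 395 in wild type dark) and COR47 (933 in sfr6 dark and 1059 in wild type dark) lay under 2-fold. The called cold genes were dim, with wild-type dark signals of 45.9 to 86.8, and 3 of the 6 genes passed the floor at the 60th percentile, with a median of -0.58.

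Starvation and amino acid breakdown genes, which plants use in prolonged darkness, were mostly lower in sfr6, with some members near 0. ATL8, a RING-type ubiquitin ligase gene induced by sugar starvation, read 171 in sfr6 dark and 526 in wild type dark, 3.08-fold lower in sfr6. It was also lower in light, at 28.1 in sfr6 and 73.0 in wild type. ATL8 was the 1 called gene of 5 measured starvation markers, with 0 higher, and the list's median was -0.52 after dark and -1.16 in light. PPDK, which feeds carbon from pyruvate into gluconeogenesis, read 962 in sfr6 dark and 1486 in wild type dark. AKINBETA1, a subunit of the energy-sensing kinase SnRK1, read 921 in sfr6 dark and 1324 in wild type dark. XERICO, a RING protein gene of the abscisic acid response, was the member above 0, at 0.19.

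Among 14 measured genes of amino acid breakdown, 3 were at least 2-fold lower, 0 were higher and the median was -0.41. AT5G38710, the second proline dehydrogenase gene, read 21.2 in sfr6 dark and 71.4 in wild type dark, at least 3.23-fold lower in sfr6. AT4G33150, whose bifunctional product degrades lysine, read 269 in sfr6 dark and 699.9 in wild type dark, 2.60-fold lower in sfr6. MGL, the methionine gamma-lyase, read 177 in sfr6 dark and 455 in wild type dark, against 84.4 in sfr6 light and 91.4 in wild type light. For MGL the genotypes were thus close in light and 2.57-fold apart after dark. The leucine enzymes were split: MCCA and IVD had differences of -0.66 and -0.59, while MCCB read 1079 in sfr6 dark and 1080 in wild type dark. Autophagy genes, which recycle cell contents in starvation, had 0 of 10 called, with differences from -0.43 (ATG8E) to 0.06. The glutamine amidotransferase gene GAT1_2.1 and the asparaginase gene ASPGB1 are outside the list and were picked from the called genes after values were seen. They read 617 and 231 in sfr6 dark and 1395 and 511 in wild type dark.

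Jasmonate and ethylene genes had 2 of 5 measured members at least 2-fold lower and 0 higher, with a median of -0.43. Both called genes were among 3 members matched by locus after values were seen, against 0 of 2 matched by name. AT5G05600 and AT2G38240 both encode oxygenases that inactivate jasmonate and are themselves induced by it. AT5G05600 read 41.0 in sfr6 dark and 101 in wild type dark, 2.46-fold lower in sfr6. AT2G38240 read 15.7 in sfr6 dark and 50.8 in wild type dark, at least 2.30-fold lower in sfr6. EIN3, the ethylene transcription factor, had a difference of -0.12. The median moved to -0.28 over the 3 members above the floor on both dark arrays.

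Defence peptides and protease inhibitors had 4 of 11 measured genes at least 2-fold lower and 0 higher, with a median of -0.28. All 4 called genes were among 10 members matched by locus after values were seen, against 0 of 1 matched by name. The thionin gene AT1G66100 read 199 in sfr6 dark and 804 in wild type dark, 4.03-fold lower in sfr6. In light, too, it was 2.87-fold lower, at 281 in sfr6 and 806 in wild type. The protease inhibitor genes AT2G43535 and AT2G38870 were 2.26-fold and 2.14-fold lower after dark, and 2.70-fold and 2.25-fold lower in light. AT2G43550, of the same trypsin inhibitor family as AT2G43535, read 40.3 in sfr6 dark and 81.1 in wild type dark, but 168 in sfr6 light and 144 in wild type light. THI2.2, another thionin gene, read 752 in sfr6 dark and 912 in wild type dark. With centring on the spike-in controls, 2 of these 4 genes stayed at 2-fold.

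Other genes among the lowest have roles in defence, the wall or no role named here. AT1G67865 read 27.3 in sfr6 dark and 188 in wild type dark, 6.90-fold lower in sfr6. AT3G28220, which encodes a TRAF-like protein, was 6.37-fold lower (87.7 in sfr6 dark and 558 in wild type dark). The ankyrin-repeat gene AT1G10340 was 6.01-fold lower, at 27.04 in sfr6 dark and 163 in wild type dark, and both light signals were under the floor. Very bright in wild type was AT1G62480, at 443 in sfr6 dark and 2301 in wild type dark. The lipase gene AT5G24210 was 3.53-fold lower, and the pectin methylesterase inhibitor gene AT5G62360 at least 4.10-fold lower. With the floor at the 60th percentile AT5G62360 was at -0.64 on the log2 scale, under 2-fold. The remaining genes of the lowest 20 were AT3G45160, AT1G19380, AT3G22060 and AT4G16000, with folds from 3.68 to 4.44.

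Wall-modifying genes went both ways. XTH18, which cuts and rejoins xyloglucan, read 39.4 in sfr6 dark and 158 in wild type dark, 4.02-fold lower in sfr6, but 44.7 in sfr6 light and 42.2 in wild type light. XTH32, of the same family, read 258 in sfr6 dark and 106 in wild type dark, 2.43-fold higher in sfr6. Of 5 measured genes of this family, those were the called ones, and the median was -0.11, or 0.014 with centring on the spike-in controls. Expansins, which loosen walls, were split in the same way. EXLA2 read 26.9 in sfr6 dark and 94.0 in wild type dark, 3.49-fold lower in sfr6, and both of its light signals were under the floor. EXPB3 read 105 in sfr6 dark and 41.1 in wild type dark, 2.55-fold higher in sfr6. The median of the 11 measured expansins was 0.22, or -0.15 over the 4 that passed the floor at the 60th percentile. With that floor EXLA2 was at -0.69 and EXPB3 at 0.85, both under 2-fold.

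The class III peroxidases, secreted enzymes that use hydrogen peroxide to cross-link or loosen the wall, went both ways as well. Of 28 measured genes, 3 were at least 2-fold lower in sfr6 and 2 higher, 11 were below 0 and 17 above, and the median was 0.29. AT5G64120 read 112 in sfr6 dark and 557 in wild type dark, 4.97-fold lower in sfr6. The light pair gave the same picture for it, at 110.5 in sfr6 and 615 in wild type. Its neighbour AT5G64100 read 364 in sfr6 dark and 767 in wild type dark, and AT2G37130 read 125 in sfr6 dark and 264 in wild type dark. Both were also at least 2-fold lower in light, by 2.58-fold and 2.71-fold. On the higher side, AT3G01190 read 253 in sfr6 dark and 97.0 in wild type dark, 2.60-fold higher in sfr6, and 257 in sfr6 light and 124 in wild type light. AT5G66390, known for its part in lignification, read 116 in sfr6 dark and 54.9 in wild type dark, 2.12-fold higher in sfr6. With quantile normalization 1 gene of the family was called higher, and with centring on the spike-in controls 1 was called lower and 3 higher.

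Tau glutathione transferases, which attach glutathione to reactive or toxic compounds, had 3 of 8 measured genes at least 2-fold higher and 0 lower, with a median of 0.31. GSTU22 read 111 in sfr6 dark and 31.5 in wild type dark, 3.52-fold higher in sfr6. Its signals in light were 210 in sfr6 and 89.1 in wild type. GSTU25 read 64.4 in sfr6 dark and 23.3 in wild type dark, 2.76-fold higher in sfr6, and GSTU20, a neighbour of GSTU22, read 140 in sfr6 dark and 69.3 in wild type dark. The other 5 tau genes had differences from -0.31 (GSTU16) to 0.37 (GSTU26), and GSTL3, of the lambda class, had 0.21. GSTU20 was just past 2-fold and was not called under median centring or quantile normalization. With the floor at the 60th percentile, GSTU22 was at 0.93 and GSTU25 at 0.15, both under 2-fold. The wild-type dark signals of GSTU22 and GSTU25 were close to the floor.

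**Figure D4:**
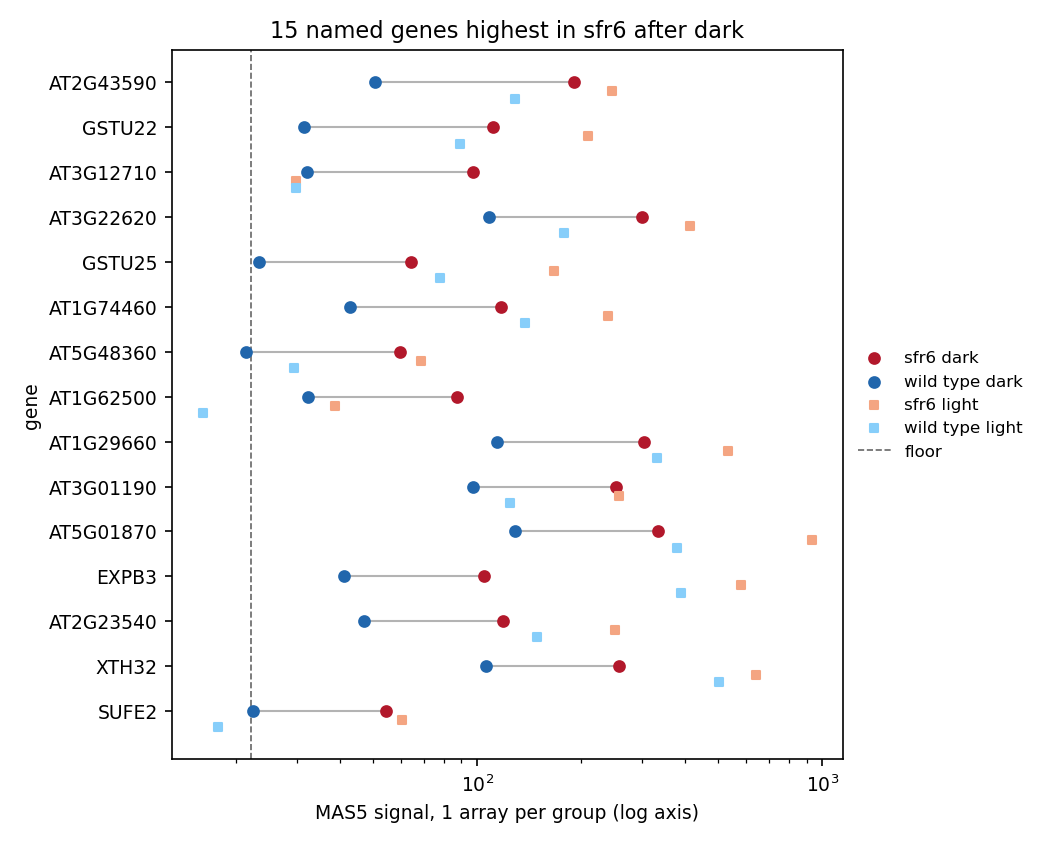
MAS5 signals (x axis, log scale) of the 15 named genes highest in sfr6 after dark (y axis), with circles for the dark arrays (sfr6 red, wild type blue), squares for the light arrays and a dashed line at the floor of 22.1. The wild type dark circles lie between 21.4 and 129, and the sfr6 dark circles between 54.5 and 335.

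Lipid transfer proteins, which carry lipids to the cuticle, suberin and membranes, had 4 of 15 measured genes at least 2-fold higher and 0 lower, with a median of 0.21. AT3G22620 read 300.4 in sfr6 dark and 108 in wild type dark, 2.77-fold higher in sfr6. AT5G01870 read 335 in sfr6 dark and 129 in wild type dark, and 935 in sfr6 light and 379 in wild type light. Both were also at least 2-fold higher in light, by 2.30-fold and 2.46-fold. The list as a whole did not lie higher there, with a light median of -0.13, 8 genes below 0 and 6 above. After dark 6 were below 0 and 9 above. AT1G62500 and AT2G48130 were 2.69-fold and 2.17-fold higher after dark, and neither was called with the floor at the 60th percentile. AT1G62510, next to AT1G62500 by number, lay on the other side, at 1083 in sfr6 dark and 2079 in wild type dark.

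GDSL lipases and esterases are a large family of which some members build cutin or suberin. Of 34 measured genes, 3 were at least 2-fold higher and 1 lower, with a median of 0.15. Called were thus 11.8% of them, against 2.24% of all named genes. AT1G74460 read 117 in sfr6 dark and 42.8 in wild type dark, 2.74-fold higher in sfr6. AT1G29660 read 305 in sfr6 dark and 115 in wild type dark, and AT2G23540 read 119 in sfr6 dark and 47.1 in wild type dark. These 3 were also higher in light, by 1.74-fold, 1.61-fold and 1.68-fold. AT5G33370, known as a cutin synthase, was the low one, at 21.0 in sfr6 dark and 67.5 in wild type dark, at least 3.06-fold lower in sfr6, and 2.92-fold lower in light.

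Further genes among the 15 highest were AT2G43590, a chitinase gene, and AT5G48360, a formin gene that encodes an actin-nucleating protein. AT2G43590 had the largest difference on this side, at 191 in sfr6 dark and 50.6 in wild type dark, 3.77-fold higher in sfr6. It read 245 in sfr6 light and 129 in wild type light. AT5G48360 was at least 2.70-fold higher, at 59.6 in sfr6 dark and 21.4 in wild type dark. AT3G12710, related to DNA glycosylases, read 97.4 in sfr6 dark and 32.2 in wild type dark, 3.03-fold higher in sfr6, while the light signals were 29.8 in sfr6 and 29.9 in wild type. With the floor at the 60th percentile, AT5G48360 was at 0.04 and AT3G12710 at 0.74, both under 2-fold. SUFE2, which activates the plastid machinery for iron-sulphur clusters, was 2.42-fold higher, at 54.5 in sfr6 dark and 22.5 in wild type dark.

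Root markers were read beside the higher peroxidase, lipid transfer and GDSL genes, since many of these families are active in roots. PYK10 had a difference of -0.19, and EXPA7, a root-hair expansin, read 28.4 in sfr6 dark and 23.3 in wild type dark. These were the 2 measured of 4 root markers named on the array, with summed dark signals of 1851 in sfr6 and 2104 in wild type. Neither was at 0 on either dark array, and the other 2 were under the floor on both dark arrays. Their part in the result was not tested.

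Iron-deficiency genes had 1 of 6 measured genes lower and 1 higher, with a median of 0.23. PYE, a bHLH regulator of the iron response, read 27.7 in sfr6 dark and 56.1 in wild type dark, but 76.2 in sfr6 light and 47.6 in wild type light. With centring on the spike-in controls PYE was at -0.90 and not called. AT3G13610, which makes iron-mobilising coumarins, read 76.04 in sfr6 dark and 34.0 in wild type dark, 2.24-fold higher in sfr6. In light it read 183 in sfr6 and 168 in wild type. AT1G47400, an iron-deficiency peptide gene, read 29.5 in sfr6 dark and 10.2 in wild type dark, so its difference of 0.42 is a bound, against 2.45 in light. The bHLH factors bHLH104 and ILR3 had differences of -0.30 and 0.05.

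Several lists shifted a little with none of their matched genes at 2-fold, though related genes outside the lists did reach it. All 5 measured flavonoid genes were above 0, with a median of 0.36; DFR, which commits the pathway to anthocyanins, read 110.3 in sfr6 dark and 84.2 in wild type dark, against 214 in sfr6 light and 60.9 in wild type light. The serine carboxypeptidases and subtilases that the peptidase list matched had 14 of 15 above 0 and a median of 0.42, led by scpl25 at 207 in sfr6 dark and 108 in wild type dark. The list did not match the subtilase gene ATSBT5.2, which ran the other way, at 19.4 in sfr6 dark and 58.1 in wild type dark, at least 2.63-fold lower in sfr6. Tubulins and other cytoskeleton genes had 9 of 11 above 0 and a median of 0.31, led by TUB1 and TUB5 with differences of 0.81 and 0.69. All 4 measured genes of the clock list were below 0, with a median of -0.38; CCL read 1866 in sfr6 dark and 2667 in wild type dark, and GI read 17.6 in sfr6 dark and 30.4 in wild type dark. XCT, a clock gene outside the list, was 2.06-fold higher in sfr6, at 66.3 in sfr6 dark and 32.2 in wild type dark. The medians of these 4 lists kept their sign under the 3 other scalings tried. With centring on the spike-in controls, 1 flavonoid gene and 1 peptidase gene of the lists reached 2-fold.

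Most measured photosynthesis transcripts lay under 2-fold between the genotypes. The 3 measured antenna genes, all of the LHCB4 type, had differences from -0.59 (LHCB4.3) to -0.17 (LHCB4.2). Their median was -0.28 after dark and -0.37 in light, where all 3 were below 0 too. The 8 measured nuclear photosystem and Calvin cycle genes had a median of -0.14, but a median of 0.030 with quantile normalization. Of 69 chloroplast-encoded transcripts, 0 were at least 2-fold lower and 1 higher (1.45% called, against 2.24% of all named genes). That one was rbcL, the large subunit of Rubisco, at 565 in sfr6 dark and 279 in wild type dark, 2.02-fold higher in sfr6, and 671 in sfr6 light and 538 in wild type light. It was not called under median centring. The other chloroplast transcripts had differences between -0.86 (psbD) and 0.85 (rpoB). Below 0 were 47 of the 69, with a median of -0.12, against 34 with a median of 0.00015 with spike-in centring. Transcripts of the cytochrome complex and ATP synthase had a median of -0.21 over 12 genes, and those of the chloroplast RNA polymerase had a median of 0.35 over 4. Chlorophyll synthesis had 0 of 8 called, with a median of 0.14, and CHLI2, a subunit of magnesium chelatase, lay farthest out, at 245 in sfr6 dark and 129 in wild type dark. With centring on the spike-in controls 1 gene of this list was called higher.

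Beyond the lists described above, some other called genes are named here, some sharing a family and some single. They were grouped after their values were seen, and their number is not set against any background. Besides AT3G28220, the TRAF-like genes ZW9 and AT5G26260 were lower in sfr6, with differences of -1.45 and -1.44. AT3G44630 and AT4G19530, resistance genes of the TIR-NBS-LRR type, had differences of -1.13 and -1.04, and the vacuolar invertase gene AT1G62660 had -1.15. HAT2, a shade- and auxin-responsive homeodomain factor, read 226 in sfr6 dark and 509 in wild type dark, and EXO, a brassinosteroid-responsive growth gene, read 506 in sfr6 dark and 1074 in wild type dark. On the higher side were the dirigent-type genes AT2G39430 and AT4G13580 (1.25 and 1.07), the formin gene AT3G07540 (1.25), the aspartyl protease genes AT5G07030 and AT2G03200 (1.15 and 1.04) and the chitinase gene AT1G02360 (1.08).

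The light arrays, which share no array with the dark pair, gave a second reading of the same genes. Of the 111 named genes at least 2-fold lower after dark, 102 had a light value, and 88 of these were below 0 in light too. In light 28 were at least 2-fold lower, 14 lay on the other side and 0 of those reached 2-fold. The median difference was -1.30 over the 111 after dark, where they were chosen, and -0.62 in light over the 102 with a light value. Of the 55 genes at least 2-fold higher, 54 had a light value, 51 were above 0 and 10 at least 2-fold higher. The median was 1.12 after dark over the 55 and 0.61 in light over the 54. Over 7146 named genes of the dark comparison that had a light value, 1.51% were at least 2-fold lower in light and 0.756% higher, and 48.1% were below 0. The genotype difference after dark thus had the same side in light for most of the genes it chose. Genes chosen for a large difference on 1 pair tend to read smaller on another. The medians therefore cannot show whether the genotype difference was smaller in light. After dark, the shares over all named genes were 1.50% lower and 0.741% higher.

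**Figure D5:**
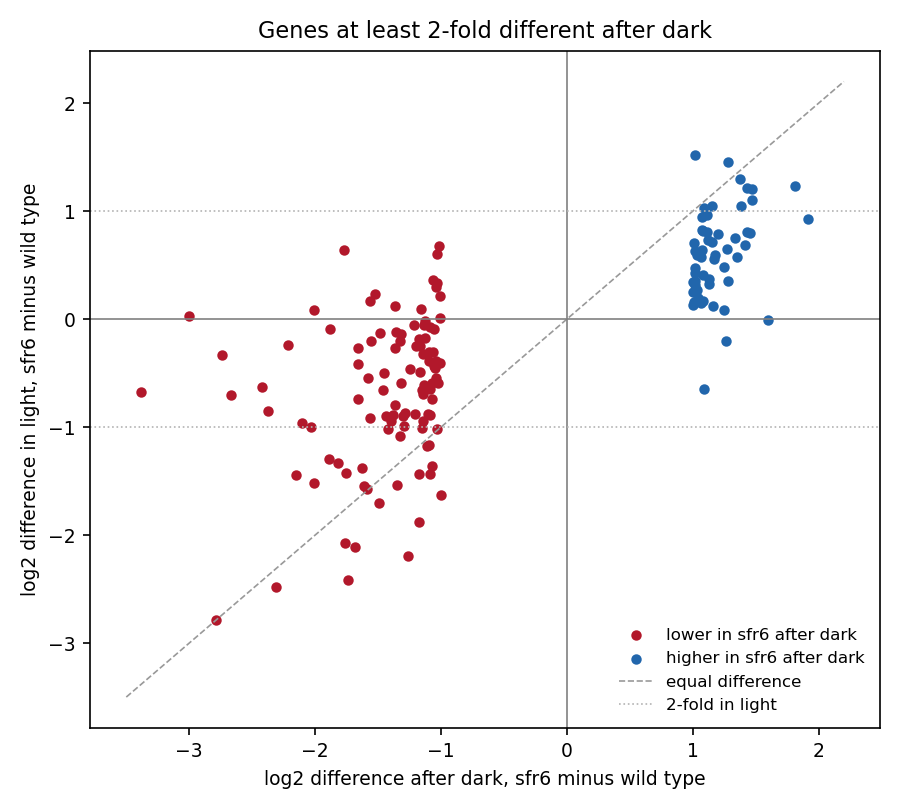
Each point is 1 named gene at least 2-fold different after dark that had a light value, with the log2 difference (sfr6 minus wild type) after dark on the x axis and in light on the y axis. Dotted lines mark 2-fold in light and the dashed line an equal difference. Of the genes lower after dark, 88 of 102 lie below 0 in light, and of the genes higher after dark, 51 of 54 lie above 0.

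The lowest genes differed in how the light pair read. AT1G67865 was 6.90-fold lower after dark and at least 6.91-fold lower in light, and AT5G64120 was 4.97-fold and 5.56-fold lower, so the genotypes were as far apart in light as after dark. AT5G48570, XTH18 and AT4G34950 were within 1.26-fold in light, and AT5G18840 was at least 1.60-fold lower there. The difference between the dark and the light comparison was not tested, since it leaves 0 residual degrees of freedom.

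Some called genes are neighbours on the chromosome. Of 164 called genes placed in the RefSeq gene order, 31 formed 17 pairs within 5 genes of each other. How many pairs other genes would form was not counted. Since 111 called genes were lower and 55 higher, pairs with the same direction are favoured in any case. In 12 pairs both genes had the same direction, among them the glutaredoxin pairs, COR15B with COR15A, AT5G64100 with AT5G64120, and GSTU22 with GSTU20. In 5 pairs they were opposite, such as AT2G43550 (-1.01) and AT2G43590 (1.92). Several of the same-direction pairs are duplicated genes, whose probe sets may share signal.

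The 2-fold threshold falls inside a continuous range of values. Just inside it on the lower side were AT1G54740 and AT4G18340, at -1.004 and -1.005, and just outside were AT1G76600 at -0.999 and AT5G54300 at -0.991. On the higher side AT1G75280 and AT5G05890 were just inside, both at 1.00, and AT5G27750 and AT2G27590 just outside, at 0.993 and 0.984. A dimmer dark signal under the floor gave a bound for 27 of the 111 lower and 5 of the 55 higher genes.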

How the data were processed

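RNA of 4 samples was hybridised to 1 ATH1 array each. The deposited intensity values are MAS5 signals, per the submitters' processing notes, which name no version; their scale is linear, and detection calls were not used. The mean without the top and bottom 2% was 100.01 on every array. Control probe sets (64 of 22810) were left out. Gene names came from the platform annotation, updated through a RefSeq table (TAIR10.1, for names and gene order). From the deposited intensity, floored log2 differences were computed with Python 3.11.15, numpy 2.4.6 and pandas 2.3.3, and drawn with matplotlib 3.10.9. The calculation was tested on simulated data. Where a gene had several probe sets, the one brightest in dark stood for it.

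Named are the 20 lowest and 15 highest genes, each 2-fold gene of a list with a share at least 3 times the overall one or a median of at least 0.3 in size, and examples. Other genes were named after their values were seen. The members and lists were chosen with earlier results of these data known. In 15 lists, 156 members were matched by locus, written after values were seen because the tables hold no descriptions. The lists of CC-type glutaredoxins and of chloroplast subgroups were also added then. Roles are background knowledge. With 1 array per group there is no SD, SE or p-value.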

Additional observations from a re-analysis of the deposited data

Results flagged for a closer look

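Genes at least 2-fold different after dark whose light difference was at least 0.5 in the opposite direction were AT2G41090, AT1G12080, PYE and AT1G78995. AT2G41090, the calmodulin-like gene, had -1.77 after dark and 0.64 in light. AT1G12080 read 43.1 in sfr6 dark and 88.2 in wild type dark, against 54.0 in sfr6 light and 35.5 in wild type light, a light difference of 0.61. PYE had -1.02 after dark and 0.68 in light. AT1G78995 read 117 in sfr6 dark and 55.1 in wild type dark, and its light difference was -0.64. These opposite directions were not tested.

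Among the control probe sets, which no comparison uses, the 25S ribosomal RNA signal of sfr6 dark was 3.63 times that of wild type dark. The 5S ribosomal RNA signal of sfr6 dark was 0.395 times that of wild type dark (18.1 in sfr6 and 45.9 in wild type), and the ratio was 0.363 in light.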

How the results depend on the processing

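The deposited scale gave 233 probe sets lower and 109 higher. A floor at the 60th percentile (58.1) gave 151 lower and 39 higher. With log2(signal + 16) and no floor, 58 were higher, with quantile normalization 70, and with centring on the spike-in controls 192. In each other case, the lower count and, where not given, the higher count stayed within 1.5 times. The array shift removed was 0.048 by median centring and -0.12 by spike-in centring, which moved the median of all probe sets to 0.16. With spike-in centring 48.9% of calls were lower, against 68.1% on the deposited scale. Of 233 probe sets lower on the deposited scale, between 151 and 233 were also called under each alternative, and of 109 higher, between 39 and 109. Of 23 list medians, 3 changed sign: expansins to -0.15 with the higher floor, and xyloglucan enzymes to 0.014 and calcium sensors to 0.0040 with spike-in centring. The 70 named genes were chosen for a 2-fold difference on these same arrays. None of their 392 values changed sign, but a floor, an added constant or so small a shift could not reverse such a difference. Under 2-fold fell 47 values, 19 of 59 with the higher floor and 16 of 70 with log2(signal + 16). The rest were 6 with spike-in centring, 4 with quantile normalization and 2 with median centring. The other named genes had no value with the higher floor, and 53 were over the floor on both dark arrays. A value was read as moved when it shifted by more than the SD of the spike-in differences (0.13), since no replicate spread exists. By this measure 88 of the 392 values moved, in 49 of the 70 named genes. Of 161 values of the list medians 16 moved, in 9 of the 23 lists. No paired analysis was possible because each group has 1 array, and leaving out an array would end the comparison. The planned promoter motif search was not run. Dim signals limit what can be seen: 58.9% of probe sets in sfr6 dark and 58.2% in wild type dark were at or over the floor.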
